A study of Mus musculus with 39 samples.

Results

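Sorl1 encodes SORLA, and Sort1, Sorcs1, Sorcs2 and Sorcs3 encode sortilin and the SORCS receptors. These 5 genes make up the VPS10-domain receptor family of the mouse. Places bound near them by fusions of NOTCH and RBPJ, supplied on plasmids, were taken from the embryonic cortex. The cells were radial glial cells (RGCs) and intermediate progenitor cells (IPCs). A peak was given to a family gene where the nearest start site of any protein-coding gene was its own. This gave 50 of 20809 consensus peaks on the nuclear chromosomes: 24 for Sorl1, 12 for Sorcs3, 8 for Sorcs1, 4 for Sorcs2 and 2 for Sort1. The family was chosen by the number of IPC Notch peaks at Sorl1, by this rule the highest of any protein-coding gene. The counts below therefore describe the genes and are not tested.

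VPS10-domain receptors are membrane proteins that bind cargo in the Golgi and in endosomes and carry it between these compartments and the cell surface. SORLA directs the amyloid precursor protein APP away from the endosomes where it is cut, and its gene is a known risk gene for Alzheimer's disease. Sortilin carries neurotrophin precursors and progranulin, and acts with the neurotrophin receptor p75. The SORCS receptors are known mainly from neurons, where they sort neurotrophin receptors, glutamate receptors and APP. RBPJ is the DNA-binding factor of the Notch pathway, and the intracellular domain of NOTCH (NICD) reaches DNA chiefly by joining RBPJ.

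In Targeted DamID, a Dam methylase fused to a DNA-binding protein methylates GATC sites around the places where the fusion sits. All groups used here were cortices of wild-type MF1 mouse embryos, electroporated in utero at E13.5 and dissected at E14.5. The electroporated region was processed with no sorting step described, so a sample holds other cells of that region too, while the fusion's methylation comes from those that took up the plasmid. The Hes5 promoter drove the fusions in RGCs and the Tα1 promoter in IPCs, and the label of a cell type rests on that promoter, since peak files hold no expression of marker genes. Fusions with human RBPJ1 gave 3 RGC and 3 IPC samples, and fusions with mouse Notch gave 4 from either cell type. In RGCs, 2 of the Notch samples carried NICD and 2 carried NdECD, a form without the extracellular domain, whereas all 4 in IPCs carried NICD. The paper describes NOTCH in IPCs as ectopically expressed, and reports that these cells express Notch1 at low levels. The peaks are thus places of the supplied fusions and not of the cells' own proteins. Both fusions of a cell type were set against the Dam-only samples of that cell type, of which the labels give 5 in RGCs and 4 in IPCs. The samples behind each list are not named, and of the 5 in RGCs, 4 name the ratio tracks made with them. Joint calls of the RBPJ and Notch lists of a cell type therefore rest on controls drawn from the same Dam-only group. The authors deposited 1 peak list per protein and cell type, and on the nuclear chromosomes RBPJ had 14097 peaks in RGCs and 5497 in IPCs, while Notch had 3702 in RGCs and 2157 in IPCs. They also deposited the consensus peaks that join the lists, each with 1 of 8 cluster numbers. These files give positions only, with no height, no value of a single sample and no depth, so no spread between replicates can be shown. Intervals on shares are Wilson 95% intervals and cover counting error over peaks only.

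The sequences below show the places on which the results turn, read from the GRCm38.p6 reference, the build of the files (mm10). The word TTCCCA, on the other strand TGGGAA, is the core of the site that RBPJ binds. It was searched on both strands, where it does not overlap itself, and is in capitals. The stretch of 293 bases at chr9:41914770-41915062, printed on the + strand, lies past the 3′ end of Sorl1 in the Sorl1 peak with the most such words and holds 3 of them, of which 1 also reads as the longer TTCCCAC. Among 806 consensus peaks of like width, 18.4% had a window of 300 bases with as many.

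Sorl1, past the 3′ end: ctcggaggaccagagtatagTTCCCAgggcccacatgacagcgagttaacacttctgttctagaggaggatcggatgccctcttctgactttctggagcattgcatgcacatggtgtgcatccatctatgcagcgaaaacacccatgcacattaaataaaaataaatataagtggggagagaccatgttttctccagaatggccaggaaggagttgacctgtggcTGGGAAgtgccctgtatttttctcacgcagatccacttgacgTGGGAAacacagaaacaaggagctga

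The 175 bases at chr19:50491153-50491327 (+ strand) come from the intron of Sorcs1 where the peaks of all 4 lists overlap, and hold 3 words within the shared 1357 bases. A window as dense was present in 226 of 1563 consensus peaks of like width. The 272 bases at chr5:36323054-36323325 (+ strand) lie in a Sorcs2 intron, in the family's peak with the most words per kb, and also hold 3. Of 2563 peaks of like width, 7.22% held as dense a window.

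Sorcs1, part shared by 4 lists: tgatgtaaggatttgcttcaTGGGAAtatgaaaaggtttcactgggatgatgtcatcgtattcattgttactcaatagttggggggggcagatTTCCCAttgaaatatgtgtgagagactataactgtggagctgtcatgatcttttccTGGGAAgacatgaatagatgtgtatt

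Sorcs2, intron: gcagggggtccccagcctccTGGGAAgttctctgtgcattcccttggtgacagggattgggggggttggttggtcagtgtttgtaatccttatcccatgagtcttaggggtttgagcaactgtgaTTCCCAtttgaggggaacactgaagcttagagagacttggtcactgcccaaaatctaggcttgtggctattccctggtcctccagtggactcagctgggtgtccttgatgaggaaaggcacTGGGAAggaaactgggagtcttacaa

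The shared part of both IPC lists at Sorl1 is shown for contrast. It runs over 1953 bases, chr9:41587244-41589196 and holds 1 word, printed with 20 bases on either side at chr9:41589115-41589160 (+ strand).

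Sorl1, part shared by both IPC lists: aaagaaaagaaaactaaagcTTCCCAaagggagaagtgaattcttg

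At the family's own promoters, RefSeq promoter sequences on GRCm38.p6 matched Sorl1, Sorcs1 and Sorcs3, 3 of the 5 genes. The 250 bases before the start site are printed for Sorl1 (chr9:42124298-42124547, - strand), beside which an IPC RBPJ peak lies, and for Sorcs3 (chr19:48205775-48206024, + strand), which an RGC RBPJ peak covers. Neither stretch holds TTCCCA on either strand, and 21.6% of the 32851 promoters hold it in the same 250 bases. The GC content was 69.6% for Sorl1 and 48.4% for Sorcs3, beside a median of 52.4%.

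Sorl1, before the start site: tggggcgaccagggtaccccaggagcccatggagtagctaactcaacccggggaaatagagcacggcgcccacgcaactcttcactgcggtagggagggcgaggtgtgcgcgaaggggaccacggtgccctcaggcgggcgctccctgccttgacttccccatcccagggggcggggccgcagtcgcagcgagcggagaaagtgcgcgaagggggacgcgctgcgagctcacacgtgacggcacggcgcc

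Sorcs3, before the start site: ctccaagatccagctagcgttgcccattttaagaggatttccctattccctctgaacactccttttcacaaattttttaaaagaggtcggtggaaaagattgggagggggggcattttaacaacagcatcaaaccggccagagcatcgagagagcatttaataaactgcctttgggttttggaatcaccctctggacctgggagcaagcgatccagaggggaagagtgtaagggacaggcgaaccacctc

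Sorl1 carried 10 IPC Notch peaks, 17 RGC RBPJ peaks, 7 RGC Notch peaks and 5 IPC RBPJ peaks. Each relative carried fewer than Sorl1 in every list: Sorcs1 had 7 RGC RBPJ, 3 RGC Notch, 2 IPC RBPJ and 1 IPC Notch peaks. Sorcs3 had 7, 1, 4 and 2 in the same order, Sorcs2 had 3 RGC RBPJ peaks and 1 IPC RBPJ peak, and Sort1 had 2 RGC RBPJ peaks and no other. All 5 genes thus had a consensus peak called in RGC RBPJ, against 30.9% of 21938 protein-coding genes, and 38.7% of those genes had a consensus peak of any list. A peak called in RGC Notch lay nearest to 3 of the 5 (11.5% of genes), in IPC RBPJ to 4 of the 5 (16.2%) and in IPC Notch to 3 of the 5 (6.91%). The family was chosen on these peaks, so nothing is read from the difference. In IPC Notch, 20419 genes had no peak and 1162 had a single peak. The genes next to Sorl1 in that order were Epha4, an ephrin receptor, Meis2, a homeobox factor, and Zfp608, each with 9.

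**Figure D1:**
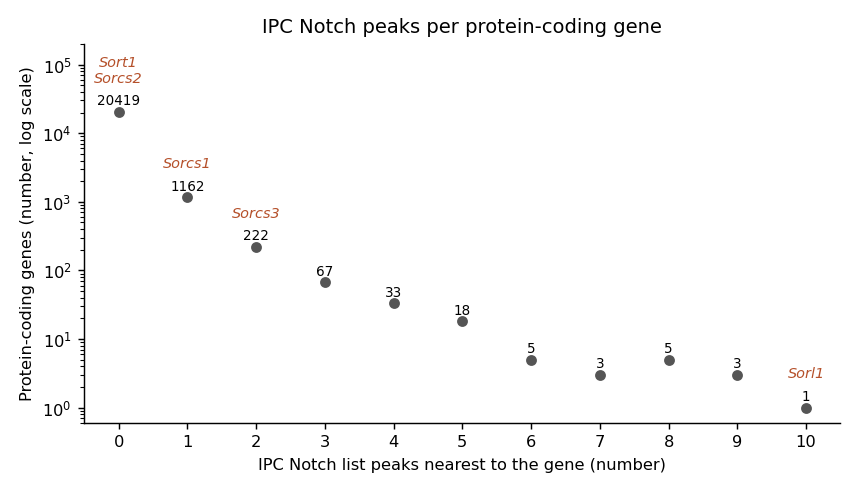
Number of protein-coding genes (y axis, log scale) against the number of IPC Notch list peaks nearest to the gene (x axis). Each point is a count of genes, printed above it. Sorl1 stands alone at 10, Sorcs3 is among 222 genes with 2, Sorcs1 among 1162 with 1, and Sort1 and Sorcs2 among the 20419 with none.

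The genes differ in how much sequence lies nearest to them. That stretch is 626 kb for Sorl1, 1990 kb for Sorcs1, 1410 kb for Sorcs3, 195 kb for Sorcs2 and 83.7 kb for Sort1. Per 100 kb of it, Sorl1 had 1.6 IPC Notch peaks, Sorcs3 0.142 and Sorcs1 0.0502, beside 0.0791 over the whole genome. For RGC RBPJ the values were 2.72 for Sorl1, 2.39 for Sort1, 1.54 for Sorcs2, 0.498 for Sorcs3 and 0.351 for Sorcs1, beside 0.517. The long genes Sorcs1 and Sorcs3 were thus at or under the density of the genome in RGC RBPJ, and Sort1 and Sorcs2 were above it through 2 and 3 peaks in short stretches. Counted per 100 kb, 327 genes had more IPC Notch peaks than Sorl1. Of these, 268 had a single peak, and the median of their nearest sequence was 39.5 kb. Among the 1108 genes with at least 500 kb, a cut set after values were seen, Sorl1 had the highest density. This density rests on the count that chose Sorl1. By bases covered, its 14527 bases of IPC Notch peaks ranked 4 among all genes. Epha4, Meis2 and Zfp608 had 0.647, 1.2 and 0.702 IPC Notch peaks per 100 kb.

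**Figure D2:**
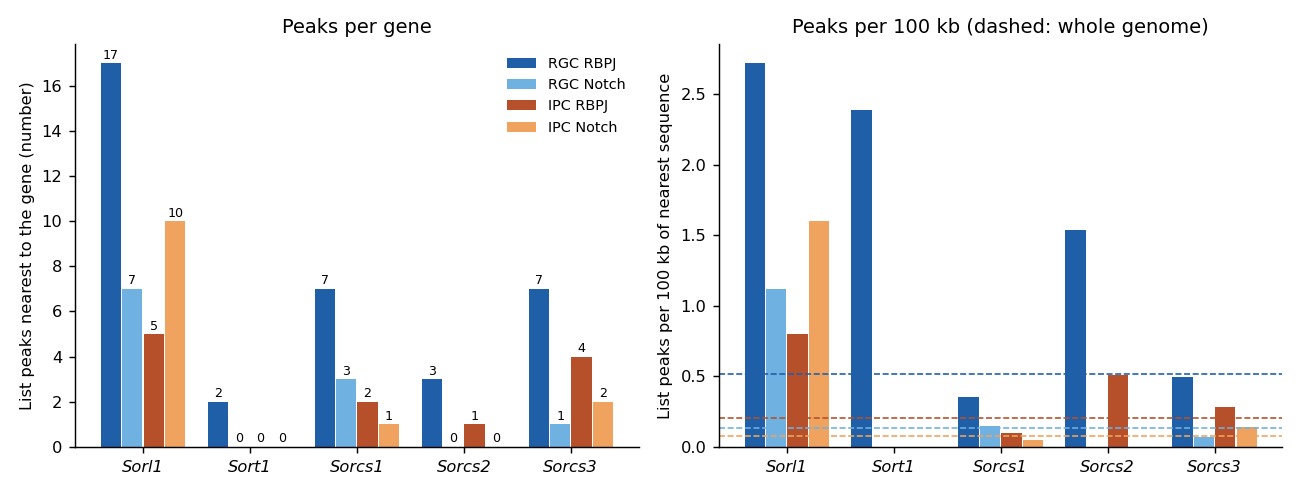
List peaks nearest to each family gene by list, as a number (left) and per 100 kb of the sequence nearest to the gene (right); bars are single values from pooled lists, without error, and dashed lines mark the same density over the genome. Sorl1 is the only gene with IPC Notch bars above 1 per 100 kb, and Sort1 shows RGC RBPJ alone.

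Sorl1 (ENSMUSG00000049313) lies at chr9:41964720-42124297 on the - strand. Of its 24 consensus peaks, 16 lay past its 3′ end, 5 inside the gene and 3 upstream. By the midpoint, 79.2% (59.5 to 90.8) were intergenic and 20.8% (9.24 to 40.5) intronic, and none was exonic, whereas 44.6% of all consensus peaks were intergenic and 47.3% intronic. The peaks covered 12.9% of the sequence nearest to the gene and lay a median of 75.4 kb from a Sorl1 start site, beside 21.1 kb over all peaks. The gene has several annotated start sites, and for the 17 peaks from chr9:41580636 to chr9:41970998 the nearest was the internal site at 41974587, close to the 3′ end, so these distances run from there and not from the 5′ end of the gene. They were also wide: 7 of the 24 spanned at least 5 kb (29.2%, 14.9 to 49.2), as 5.19% of all consensus peaks did, and the widest had 7391 bp.

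Of these 24 peaks, 16 were called in RGC RBPJ (66.7%, beside 67.6% of all consensus peaks), 7 in RGC Notch (29.2%, beside 17.7%), 5 in IPC RBPJ (20.8%, beside 26.2%) and 10 in IPC Notch (41.7%, beside 10.1%). The last share is the one that chose the gene. Of the 26 peaks at the relatives, 19, 4, 7 and 3 were called in the same lists. RGC RBPJ thus called 66.7% of the Sorl1 peaks (46.7 to 82) and 73.1% of those at the relatives (53.9 to 86.3). Peaks of a pooled list are not replicates, so these shares were not tested against each other. Both proteins were called in RGCs at 4 Sorl1 peaks and 2 peaks of the relatives (7.77% of all), and both in IPCs at 3 and 2 (2.36%). A single list called 15 Sorl1 peaks and 21 of the relatives (82.9% of all). No Sorl1 peak and 1 Sorcs1 peak was called in all 4 lists, as were 0.678% of all consensus peaks.

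The 10 IPC Notch peaks of Sorl1 fell into 7 past the 3′ end, 1 in an intron and 2 upstream. Of them, 7 lay in consensus peaks also called in RGC RBPJ, beside 53.7% of the 2099 consensus peaks of that list, 2 in ones also called in RGC Notch (23.5%) and 3 in ones also called in IPC RBPJ (23.4%). With 10 peaks, the intervals of these shares are 39.7 to 89.2, 5.67 to 51 and 10.8 to 60.3. In each of the 7 shared with RGC RBPJ, the list peaks themselves overlapped, by 907 to 2136 bp.

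The farthest IPC Notch peaks lay in consensus peaks 359 and 383 kb from a Sorl1 start site. In chr9:41585911-41591848 (cluster 6), the RGC RBPJ peak took the whole 5938 bp, the IPC RBPJ peak 2544 bp and the IPC Notch peak 1953 bp, all of it inside the IPC RBPJ peak. All 3 list peaks cover 2 internal start sites of the noncoding gene 3110039I08Rik. In chr9:41609580-41615165 (cluster 7), the IPC Notch peak of 1406 bp and the IPC RBPJ peak of 2524 bp did not meet and stood 145 bp apart. These IPC peaks lay over Gm49317 and 3110039I08Rik, long noncoding genes read on the + strand.

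Nearer to the gene, a pair of wide peaks stood 0.883 kb apart over 3110039I08Rik and Gm35835, a long intergenic noncoding gene. The consensus peak chr9:41694554-41701944 (cluster 2), of 7391 bp, was called in RGC RBPJ and over 2169 bp in IPC Notch. In chr9:41702828-41708732 (cluster 6), RGC RBPJ took 5815 bp, IPC RBPJ 1600 bp and IPC Notch 997 bp, with 1475 bp between both IPC peaks. Of the 3 Sorl1 peaks called for both proteins in IPCs, 1 therefore held IPC RBPJ and IPC Notch peaks that overlapped. Over all 492 consensus peaks called for both in IPCs, the list peaks overlapped in 470 (95.5%), so Sorl1 held 2 of the 22 where they stood apart. In RGCs, both list peaks overlapped at all 4 Sorl1 peaks called for both, and in 1615 of 1616 over the genome.

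The next consensus peaks called in IPC Notch hold start sites of noncoding genes. The consensus peak chr9:41732066-41738220 (cluster 2) holds 2 start sites of Gm35835 and was called in RGC RBPJ over 4452 bp, in RGC Notch over 5239 bp and in IPC Notch over 2136 bp. Of these list peaks, that of RGC RBPJ covers the start sites. The peak chr9:41871419-41877921 (cluster 6) holds the start of AC160966.1 and, on the other strand, that of Gm48814, which GENCODE classes as a long noncoding RNA of a bidirectional promoter. IPC Notch took 1199 bp of it, RGC Notch 2773 bp and RGC RBPJ 5611 bp in 2 peaks. The RGC Notch peak covers both starts, an RGC RBPJ peak covers 1 of the 2 starts of AC160966.1 and the IPC Notch peak covers none. Both consensus peaks were thus called in all lists but IPC RBPJ, and their IPC Notch peaks lay beside the start sites. Another, chr9:41890496-41890906 (cluster 2), was the narrowest Sorl1 peak, with 411 bp, was called in IPC Notch alone and covers the start of Gm40513, and its GC content of 67.6% was the highest of the 24. It holds no TTCCCA.

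In all, 6 of the 24 Sorl1 peaks held a start site of a long noncoding gene (25%), among them 4 of the 10 called in IPC Notch. The IPC Notch peaks themselves covered such a start in 2 of 10, at 3110039I08Rik and Gm40513, beside 3.52% of all 2157 peaks of that list. For RGC RBPJ this was 5 of 17 at Sorl1, beside 4.33%. Such a start lay in 2 of 26 peaks of the relatives (7.69%), in 4.09% of all consensus peaks and in 5.62% of those called in IPC Notch. No Sorl1 peak held a start site of a coding gene, which 16.6% of all consensus peaks did. Sorl1 peaks were wider than most, and a wide peak holds a start site more readily; the part of width in this share was not tested. The lists carry no transcription, so whether any of these noncoding genes is expressed in RGCs or IPCs cannot be read from them.

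The remaining 3 IPC Notch peaks of Sorl1 lay inside and upstream of the gene. The intronic chr9:42031343-42032822 (cluster 1) was called in IPC Notch alone, touches an exon of Sorl1, overlaps the antisense gene Gm16214 and holds no TTCCCA. Upstream, chr9:42174374-42175649 (cluster 6) was also called in IPC Notch alone, 50.1 kb from the start site. At 58.8 kb, chr9:42183053-42185362 (cluster 2) was called in RGC RBPJ over 2244 bp and in IPC Notch over 1500 bp, of which 1434 bp were shared. In total 3 of the 10 IPC Notch peaks stood in no other list.

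**Figure D3:**
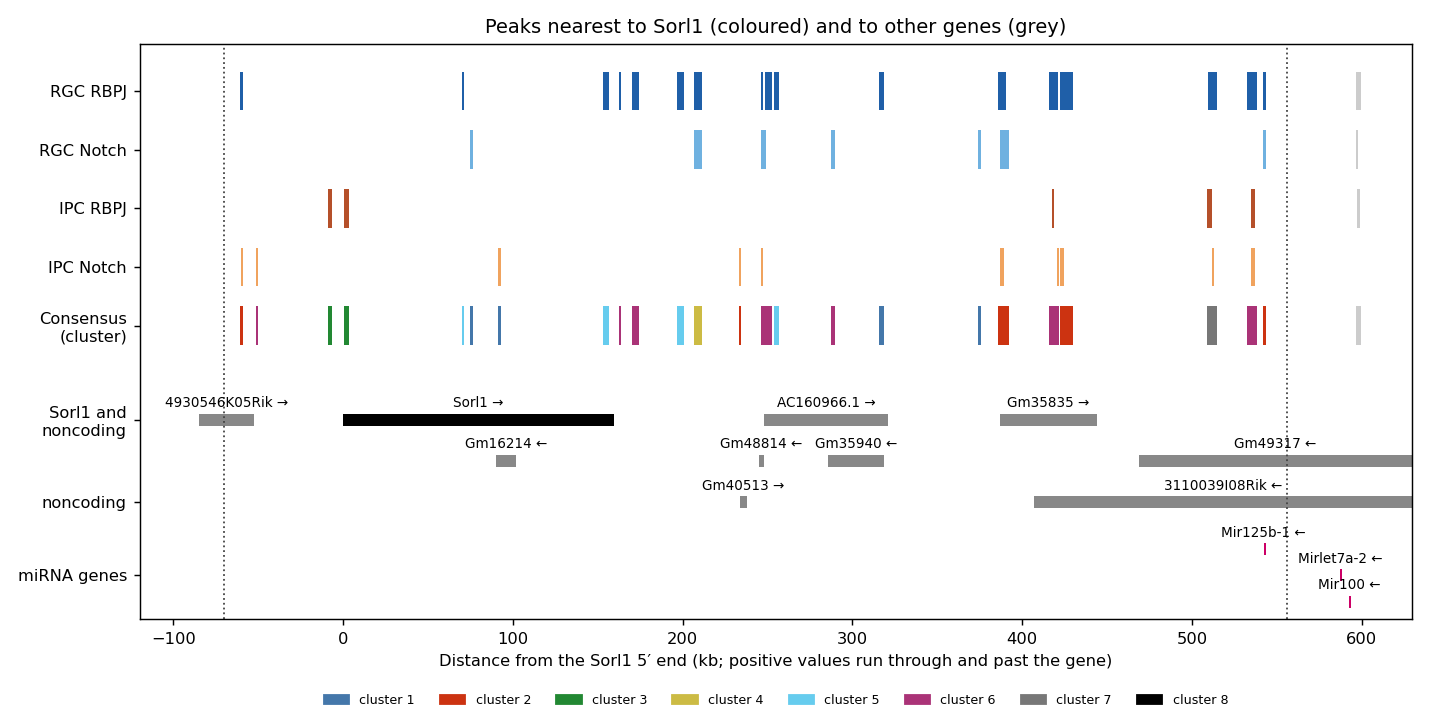
Peaks around Sorl1 by list and as consensus peaks coloured by cluster (x axis, kb from the Sorl1 5′ end, running through and past the gene; narrow peaks are drawn wider than they are so as to be seen); grey peaks lie nearest to other genes and dotted lines bound the sequence nearest to Sorl1. Most RGC RBPJ and IPC Notch peaks lie to the right of the gene, over noncoding genes and up to Mir125b-1. The IPC RBPJ peaks stand either near the Sorl1 start or among peaks of the other lists far past its 3′ end.

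Some RBPJ peaks of IPCs were placed otherwise. At the Sorl1 start, chr9:42120807-42123937 (cluster 3) lay 360 bp inside the gene from the start site and was called in IPC RBPJ over its 3131 bp and in no other list. A further IPC RBPJ peak, chr9:42130912-42133076 (cluster 3), stood alone 6.62 kb upstream. The other 3 IPC RBPJ peaks lay in the wide consensus peaks 266 to 383 kb away that IPC Notch also touched. At the start of the gene, the lists thus hold RBPJ in IPCs only, and the next peak of another list on either side was the IPC Notch peak 50.1 kb upstream and the RGC RBPJ peak 70.2 kb into the gene.

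RGCs had their Sorl1 peaks chiefly past the 3′ end. The 4 consensus peaks called for both proteins in RGCs were chr9:41580636-41582635, chr9:41732066-41738220, chr9:41871419-41877921 and chr9:41912611-41917646. In the last of these (cluster 4) the RGC RBPJ and RGC Notch peaks shared 4929 of 5036 bp, and neither IPC list called it. It held 13 TTCCCA words, 2.58 per kb, and 1.36% of 806 peaks of like width held as many. RGC RBPJ alone called 7 further peaks and RGC Notch alone 3, of which chr9:41748248-41750154 and chr9:42047888-42049403 belonged to cluster 1.

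The peak farthest from Sorl1, chr9:41580636-41582635 (cluster 2), covers Mir125b-1 at chr9:41581926-41582002. Its RGC RBPJ peak took all 2000 bp and its RGC Notch peak 1775 bp, and neither IPC list called it. The RGC RBPJ peak also covers 9 start sites of 3110039I08Rik, and the RGC Notch peak 7 of them. Both cover the start of the noncoding gene Gm28119. miR-125b is a miRNA of the lin-4 family, known for high levels in neural cells. The RefSeq table gives both mature arms of this gene, shown with the seed, bases 2 to 8, in capitals.

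mmu-miR-125b-5p: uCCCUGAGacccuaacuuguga

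mmu-miR-125b-1-3p: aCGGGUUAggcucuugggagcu

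The 5p arm is the same 22 bases from Mir125b-1 and from Mir125b-2 on another chromosome, and 5 mature miRNAs of the table, itself included, have its seed, while the 3p arm alone has its own. Mir100 and Mirlet7a-2, in the same noncoding gene 3110039I08Rik, lie 3.63 kb and 8.92 kb from the next peak, chr9:41524792-41527793 (cluster 6), which was called in RGC RBPJ, RGC Notch and IPC RBPJ. That peak is the first outside the Sorl1 stretch: it lies 363 kb from a start site of Ubash3b and 447 kb from a Sorl1 start site, while the Mir125b-1 peak lies 392 kb from a Sorl1 start site. On the other side, the last peak inside lies 58.8 kb from Sorl1 and the first outside, chr9:42381932-42383565, lies inside Tecta, 16.2 kb from a start site of that gene and 258 kb from Sorl1.

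The rule therefore splits a single stretch of peaks between 2 coding genes. Ubash3b, which encodes a phosphatase that dampens receptor signalling, lies on the - strand like Sorl1, and no coding gene lies between them. The 803 kb between them run from the 5′ end of Ubash3b to the 3′ end of Sorl1. This stretch held 27 consensus peaks, of which 20 were called in RGC RBPJ, 10 in RGC Notch, 9 in IPC RBPJ and 9 in IPC Notch. The median among 262 intergenic stretches of 644 to 1000 kb was 3 consensus peaks and 0 called in IPC Notch. No other of the 262 held as many of either. Most IPC Notch peaks of this stretch are among those that chose Sorl1, so its place among stretches follows in part from that choice. Among all 19057 stretches between coding genes, 1 other held at least 9 IPC Notch peaks: the 1840 kb between Tmem182 and Pou3f3, with 13, named here after its values were seen. On the far side of Sorl1, Sc5d, an enzyme of cholesterol synthesis, had no peak.

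**Figure D4:**
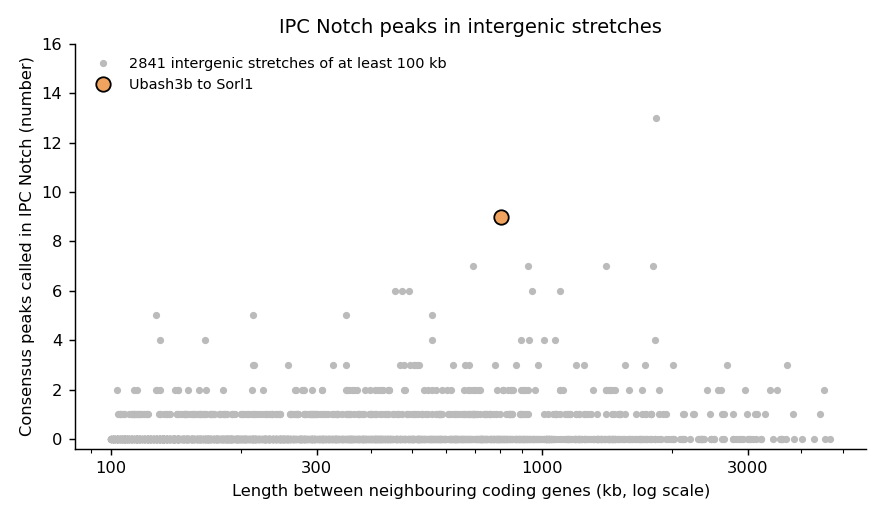
Consensus peaks called in IPC Notch (y axis) against length (x axis, kb, log scale) for each stretch of at least 100 kb between neighbouring protein-coding genes. The stretch from Ubash3b to Sorl1, with 9, is marked, and a single stretch, the 1840 kb from Tmem182 to Pou3f3, lies above it with 13. The marked stretch was reached through Sorl1, a gene chosen on its number of IPC Notch peaks.

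If noncoding genes were allowed to claim peaks, Sorl1 would keep 5 of its 24 consensus peaks and none of the 10 called in IPC Notch. The peaks would pass to 11 noncoding genes, among them AC160966.1, Gm16214 and Gm40513 with 3 each. With peaks within 100 kb only, Sorl1 kept 14 consensus peaks and 5 IPC Notch peaks. The name of the gene beside these peaks is thus a matter of the rule, and the files hold no value that ties a peak to a target gene.

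The clusters come from k-means on mean binding and follow the list calls only in part. Over all consensus peaks, cluster 6 was called in RGC RBPJ in 64.2% and in IPC Notch in 48.3%, cluster 2 in 78.9% and 46.5%, cluster 8 in RGC RBPJ in 99.4% and cluster 3 in IPC RBPJ in 96.7%. Sorl1 had 7 of 24 peaks in cluster 6 (29.2%, 14.9 to 49.2), beside 10.8% of all peaks, and 5 in cluster 2 (20.8%, 9.24 to 40.5), beside 4.76%. The relatives had 6 of 26 in cluster 6 (23.1%), close to the Sorl1 share, and 1 in cluster 2 (3.85%). Sorl1 had none in cluster 8, which held 14.4% of all peaks and 7 of the 26 peaks of the relatives. These were 3 at Sorcs1 and 4 at Sorcs3, while Sort1 and Sorcs2, with 2 and 4 peaks in all, also had none. The clusters were made from the same binding profiles as the lists, so cluster shares are not independent of the calls that chose the gene. Of the Sorl1 peaks, 4 of 7 in cluster 6 and 4 of 5 in cluster 2 were called in IPC Notch, and 2 of the relatives' 6 in cluster 6 were.

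Sorcs1 (ENSMUSG00000043531), at chr19:50143299-50678646 on the - strand, had 8 peaks, of which 6 lay inside the gene. Its intronic peak chr19:50488157-50491928 (cluster 2) was the only family peak in all 4 lists. RGC RBPJ took 3558 bp of it, RGC Notch 3733 bp, IPC Notch 2532 bp and IPC RBPJ 1413 bp, and the IPC RBPJ peak lay wholly inside the IPC Notch peak. Here the peaks of all 4 lists thus overlapped over the same 1357 bases, as at no Sorl1 peak. Inside the start of the gene, chr19:50674926-50677655 (cluster 5) was called in RGC RBPJ only, 0.83 kb from the start site, and 6 of the 8 peaks lay beyond 100 kb. The outermost, chr19:51230006-51234936, stood 551 kb upstream and was called in RGC Notch alone.

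Sorcs3 (ENSMUSG00000063434) lies on the same chromosome, at chr19:48206025-48805505 on the + strand, with 1340 kb and no coding gene between it and Sorcs1. It had 12 peaks, 10 of them in a single list. Its start site was covered by the RGC RBPJ peak chr19:48203128-48207820 (cluster 5), the only family peak on a coding start site. Both IPC Notch peaks lay far off: chr19:48576738-48578019 (cluster 6) in an intron, in IPC Notch alone and without TTCCCA, and chr19:49299181-49300652 (cluster 6) 494 kb past the 3′ end. In the latter, IPC RBPJ took 1472 bp and IPC Notch 864 bp, all shared, with no call in RGCs. The last Sorcs3 peak and the first Sorcs1 peak, chr19:49737432-49739626, lie 494 and 405 kb past the 3′ ends of their own genes.

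Sorcs2 (ENSMUSG00000029093), at chr5:36017180-36398139 on the - strand, had 4 peaks by the rule, all intronic and each in a single list. A further 2 RGC RBPJ peaks (cluster 5) lie within Sorcs2 but go to Psapl1, a gene nested in it, of which the nearer to the 5′ end of Sorcs2 is chr5:36228486-36230750. The RGC RBPJ peaks chr5:36322993-36324796, chr5:36331556-36333484 and chr5:36338831-36340820 stood in a row 25.1 to 41.1 kb from a start site. They held 6, 1 and 6 TTCCCA words. Of peaks of like width, 2.54% held as many as the first of them and 3.32% as many as the last. The fourth peak, chr5:36369207-36370315 (cluster 3), was an IPC RBPJ peak, and no Notch peak of either cell type lay at Sorcs2.

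Sort1 (ENSMUSG00000068747), at chr3:108284082-108361511 on the + strand, had RGC RBPJ peaks only. The peak chr3:108284807-108288514 (cluster 5) lay 0.716 kb inside the gene from a start site and chr3:108296591-108299010 (cluster 6) 12.5 kb. Neither was called in an IPC list. Its neighbours Psma5 and Mybphl had no peak.

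**Figure D5:**
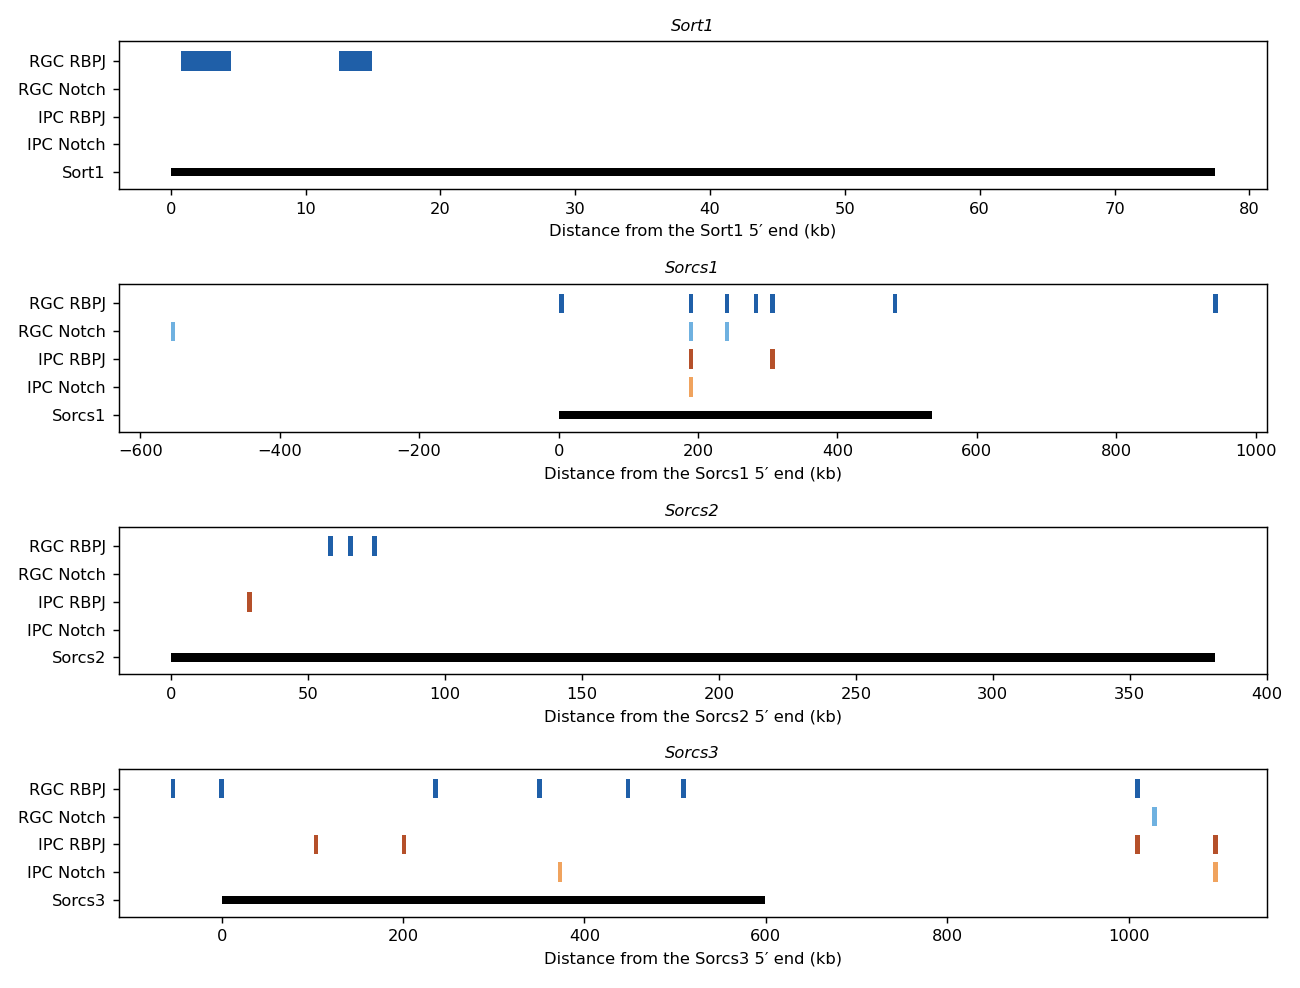
Peaks nearest to Sort1, Sorcs1, Sorcs2 and Sorcs3 by list (x axis, kb from the 5′ end of each gene, each panel on its own scale; black bars are the genes, and narrow peaks are drawn wider than they are). The panels show RGC RBPJ alone at Sort1, a column of all 4 lists inside Sorcs1, a row of RGC RBPJ peaks in Sorcs2, and scattered peaks of a single list at Sorcs3.

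In TTCCCA and GATC per kb, Sorl1 peaks resembled the genome's peaks. TTCCCA stood at 1.16 words per kb over the 24 Sorl1 peaks, 2.2 at Sorcs2, 1.63 at Sort1, 1.23 at Sorcs3 and 0.855 at Sorcs1, beside 1.17 over all consensus peaks. The longer TTCCCAC stood at 0.347 per kb at Sorl1 and 0.266 over the relatives, beside 0.27 over all peaks. TAATTA is a core word of homeobox factors and reads the same on both strands. It stood at 0.421 per kb at Sorl1 and 0.531 over the relatives, beside 0.358 over all peaks. The Dam site GATC, also the same on both strands, stood at 2.91 per kb both at Sorl1 and over all peaks. All 50 family peaks held a GATC site, which 9.76% of all consensus peaks did not. Of the 24 Sorl1 peaks, 3 held no TTCCCA, beside 17.1% of all consensus peaks, and 2 of these 3 were called in IPC Notch alone. Those 2 had 411 and 1480 bp, and of consensus peaks of like width 44.8% and 81.4% held the word. A word is not a bound site, and its absence says nothing of the factor.

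Among 29 other genes with at least 5 consensus peaks called in IPC Notch, those closest to Sorl1 in the make-up of the 4 lists were Adk, Ralgapa2 and Sox9. The measure was the cosine of the 4 counts, 0.998, 0.996 and 0.988, beside a median of 0.967 among the 29. Adk, adenosine kinase, had 8 peaks called in RGC RBPJ, 4 in RGC Notch, 3 in IPC RBPJ and 5 in IPC Notch, and Ralgapa2, a GTPase-activating subunit, had 9, 3, 3 and 5. Sox9, a factor of neural stem cells and glia, had 13, 4, 6 and 8, while Sorl1 had 16, 7, 5 and 10 in the same consensus peaks. These 4 counts are few numbers and most genes lie close together on them.

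The partners of the family were taken from a list of 38 genes by role, of which 20 (52.6%) had a consensus peak, beside 38.7% of all coding genes. By list, 17 of the 38 had a peak called in RGC RBPJ (30.9% of all coding genes), 7 in RGC Notch (11.5%), 12 in IPC RBPJ (16.2%) and 7 in IPC Notch (6.91%). Low-density lipoprotein receptor relatives, which share binding repeats with SORLA, had a peak at all 9 genes. Lrp1b had 6 and Lrp8, a reelin receptor, had 5, but Lrp1b has 3180 kb of nearest sequence and Lrp8 has 122 kb. Of the neurotrophins and their receptors, 5 of 8 had a peak, with 12 at Ntrk2, the receptor of BDNF, and 7 at Ntrk3. Ntrk2 had 8 called in RGC RBPJ, 1 in RGC Notch, 5 in IPC RBPJ and 4 in IPC Notch. Ngfr, which encodes p75, had no peak.

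Of App and the secretases, 4 of 8 had a peak, with 8 at App, the cargo of SORLA, of which 5 were called in RGC RBPJ, 2 in RGC Notch, 3 in IPC RBPJ and 1 in IPC Notch. Bace2 had 2, called in RGC RBPJ and in IPC RBPJ, and Bace1 and Ncstn had 1 each. Of the adaptors that sort VPS10-domain receptors, 1 of 9 had a peak, a single RGC RBPJ peak at Vps26a, a retromer subunit. Of the ligands, 1 of 4 had a peak, at Clu. Genes with much nearest sequence collect more peaks by this rule, and the adaptors have 10.5 to 148 kb of it and the ligands 6.02 to 128 kb, so the roles cannot be compared by these shares.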

How the data were processed

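Only positions of peaks were used. Reads were trimmed and then placed on mm10 by the authors. They set each fusion sample against each Dam-only sample with MACS2 in broad mode, applied an FDR limit and retained a peak when every such pairing of a condition had it. Consensus peaks join peaks of different lists that overlap, and the clusters come from k-means on the mean binding in them. The deposited values are therefore starts and ends in bp of peaks pooled over replicates, and their score columns are constant, so no count, depth, height or spread between samples could be used. The aligner is not given in the sources used here. The full-length Notch, neuron and ubiquitous samples were not analysed here.

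Peaks on 21 nuclear chromosomes were given to the nearest of 93513 start sites of 21938 protein-coding genes (GENCODE vM21, GRCm38). A list called a consensus peak from 1 bp of overlap. Like width means within 10%. Sequence came from GRCm38.p6 and RefSeq. The scripts ran in Python 3.11.15 (pandas 2.3.3, numpy 2.4.6, scipy 1.17.1), with figures by matplotlib 3.10.9. Nearest sites and word counts were checked against direct searches.

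The members and lists were chosen with earlier results of these data known, so no test was run. Genes were named by rule: the family, the 3 next in the IPC Notch order, the 3 most like Sorl1, coding neighbours, the partners with most peaks per role, and noncoding genes in which a peak lies; the miRNA genes, the stretches between coding genes the further partners, the counts of start sites in list peaks and the count of genes denser than Sorl1 were added after values were seen. A few items are not reported here.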

Additional observations from a re-analysis of the deposited data

How the results depend on the processing

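Counts were recomputed under 6 other ways of giving peaks to genes. With start sites of all annotated genes, Sorl1 had 3, 0, 2 and 0 peaks of RGC RBPJ, RGC Notch, IPC RBPJ and IPC Notch and 5 consensus peaks. Within 100 kb only, it had 9, 3, 2 and 5, and 14 consensus peaks, and ranked 6 in IPC Notch. With 1 start site per gene it had 3 IPC RBPJ peaks and 8 IPC Notch peaks, and ranked 3 in IPC Notch. No gene had more IPC Notch peaks than Sorl1 under 3 of the 6 (distance from the midpoint, peaks of at least 1000 bp, and joined peaks). Its ranks by peaks per 100 kb were 1619, 954, 1888 and 328 in the order of the lists, and by bases covered 23 in RGC Notch, 26 in IPC RBPJ and 4 in IPC Notch. Among genes with at least 500 kb, a comparison added after the data were seen, they were 5 in RGC RBPJ, 6 in RGC Notch and 25 in IPC RBPJ. Where a list had to cover 50% of a consensus peak, 2 Sorl1 peaks stayed in IPC RBPJ and 4 in IPC Notch, since these list peaks are narrow parts of wide consensus peaks. By any overlap, 8.33% of Sorl1 peaks were intronic. Without peaks under 1000 bp, cluster 7 held 0% of the relatives' peaks. Of 152 alternative values, 99 stayed within 1.5 times or the counting interval. No paired analysis was possible because the lists are pooled over replicates, and for the same reason no sample could be left out. Depth cannot be read from the files.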

Other observations

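The look at miRNA genes was extended, after the Sorl1 peaks had been seen, to the clusters elsewhere in the genome that carry the related miRNAs. Mir125b-2, which encodes the same 5p arm as Mir125b-1, lay inside the peak chr16:77642237-77649587 (cluster 1), called in RGC RBPJ and RGC Notch, the same pair of lists as at Mir125b-1. Mir99a and Mirlet7c-1 lay 1.79 and 2.51 kb from chr16:77591581-77597146 (cluster 7), called in RGC RBPJ, IPC RBPJ and IPC Notch. Within 100 kb of Mir125b-2 there were 8 consensus peaks, beside 4 within 100 kb of Mir125b-1, and 1 and 2 of them were called in IPC Notch. Mir99b, Mirlet7e and Mir125a lay in a single peak, chr17:17830088-17833786 (cluster 1), called in RGC Notch alone. No peak of either IPC list covered any of the 9 miRNA genes looked at. These 9 genes lie in clusters on chromosomes 9, 16 and 17 and are not separate places. The share of all miRNA genes that each list covers was not computed, so nothing is read from this.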
